A study of Homo sapiens with 3 samples.

Results

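The immunoglobulin and T-cell receptor loci were examined as 5 windows of a capture design for intron ends. A target interval was taken as a member when it lay fully inside chr14 from 106.03 to 107.29 Mb (IGH, the immunoglobulin heavy chain), chr2 from 89.156 to 90.275 Mb (IGK, the kappa light chain), chr14 from 22.09 to 23.02 Mb (TRA/TRD, the T-cell receptor alpha and delta chains), chr7 from 141.99 to 142.52 Mb (TRB, the beta chain) or chr7 from 38.27 to 38.41 Mb (TRG, the gamma chain), all in build hg19. This rule used position alone. It found 360 of the 377858 intervals of the deposited list (0.0953%): 134 in IGH, 57 in IGK, 89 in TRA/TRD, 63 in TRB and 17 in TRG. Together they covered 39144 bases, and no member touched another.

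The study searched for branchpoints, the bases inside introns that take up the cut 5′ end of the intron during splicing, by capturing and sequencing intron ends. Its 3 libraries were biological replicates of 1 group, the human erythroid and myeloid leukaemia line K562. No treatment is named. Each started from 5 µg of total RNA depleted of ribosomal RNA, with ERCC spike-in RNA at 1% in replicates 1 and 2 and 1.08% in replicate 3. The values below come from the list of target intervals that the 3 libraries share, so no value belongs to a single library and no difference below has a replicate error or a test. Each interval has a position, a width and a score, a whole number from 0 to 125 for which the sources used here give no meaning. Expression was not measured in the list, so the identity of the line could not be checked against marker genes. Read depth was not analysed here.

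Antigen receptor genes are assembled by V(D)J recombination, in which a developing lymphocyte joins one variable (V), sometimes one diversity (D), and one joining (J) segment. The joined exon is then spliced to the exons of a constant (C) gene. A germline V segment has a short leader exon, a short intron and the V exon, while a C gene has several exons with introns of ordinary size. B cells rearrange IGH and IGK, and T cells rearrange the TR loci. K562 belongs to neither lineage, and cells that do not rearrange keep these loci in germline order.

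The exons that the target pairs enclose can be read for the short exons of the constant genes, and these are shown because their lengths, with those of the neighbouring introns and exons, were used to place the genes in the list. The sequences are from GENCODE release 29 transcripts (build GRCh38), 5′ to 3′, on the strand of the gene. Capitals mark bases that are not the same in every sequence of the same gene group and length. In the IgG genes the hinge exon encodes the flexible link between the antigen-binding arms and the stem of the antibody. IGHG1 has 1 hinge exon of 45 nt, IGHG2 and IGHG4 have 1 of 36 nt, and IGHG3 has 1 of 51 nt followed by 3 of 45 nt.
IGHG1 hinge, GRCh38 chr14:105742341-105742385, minus strand: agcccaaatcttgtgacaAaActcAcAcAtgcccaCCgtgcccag
IGHG3 hinge exon 1, GRCh38 chr14:105770669-105770719, minus strand: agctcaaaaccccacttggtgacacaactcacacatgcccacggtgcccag
IGHG3 hinge exon 2, GRCh38 chr14:105770481-105770525, minus strand: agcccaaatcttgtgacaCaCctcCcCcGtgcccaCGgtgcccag
IGHG3 hinge exon 3, GRCh38 chr14:105770293-105770337, minus strand: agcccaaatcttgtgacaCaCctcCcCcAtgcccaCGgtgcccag
IGHG3 hinge exon 4, GRCh38 chr14:105770105-105770149, minus strand: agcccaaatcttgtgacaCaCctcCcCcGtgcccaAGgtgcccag
IGHG2 hinge, GRCh38 chr14:105644068-105644103, minus strand: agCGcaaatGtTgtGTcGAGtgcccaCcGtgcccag
IGHG4 hinge, GRCh38 chr14:105625344-105625379, minus strand: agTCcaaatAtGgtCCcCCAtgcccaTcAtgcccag

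The sequences of 45 nt, 1 from IGHG1 and 3 from IGHG3, differed among themselves at 7 positions, and those of IGHG2 and IGHG4 at 11. Short exons of the T-cell receptor constant genes are shown for the same reason. TRBC1 and TRBC2 share an exon of 18 nt with 2 differing positions. The exon of 48 nt occurs once in TRGC1 and as 2 copies in TRGC2, and these 3 sequences differed at 6 positions.
TRBC1, GRCh38 chr7:142792522-142792539, plus strand: actgtggcttTacctcGg
TRBC2, GRCh38 chr7:142801944-142801961, plus strand: actgtggcttCacctcCg
TRGC1, GRCh38 chr7:38262171-38262218, minus strand: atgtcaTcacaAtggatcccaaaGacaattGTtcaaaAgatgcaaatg
TRGC2 copy 1, GRCh38 chr7:38245183-38245230, minus strand: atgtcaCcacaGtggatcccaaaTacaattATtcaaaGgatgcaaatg
TRGC2 copy 2, GRCh38 chr7:38242428-38242475, minus strand: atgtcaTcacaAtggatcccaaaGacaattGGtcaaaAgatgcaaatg

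Most members had a score of 0. A score above 0 was held by 44 of the 360 members (12.2%), against 52.8% of the whole list. The share was 14.2% in IGH (19 of 134), 8.99% in TRA/TRD (8 of 89), 19.0% in TRB (12 of 63) and 29.4% in TRG (5 of 17). In IGK none of the 57 intervals scored above 0. On the rest of the same chromosome the share was 52.3% for chromosome 14, 48.4% for chromosome 2 and 52.3% for chromosome 7, so each locus, in the windows as given, lay below its own chromosome. For TRG this depended on the window edges: widened by 50 kb on each side it held 37 intervals, 54.1% of them above 0. The median score was 0 in each of the 5 loci and 1 in the whole list.

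The scores that were present were mostly low. Of the 44 scored members, 11 had a score of 1 and 32 a score from 1 to 5. A score of 10 or more was held by 7 members, while 18.5% of the whole list reached it. A score of 19 or more was held by 2 members, 1 in TRG and 1 in IGH, against 10.4% of the whole list. The mean score was 0.642 in IGH, 0 in IGK, 0.337 in TRA/TRD, 0.683 in TRB and 4.12 in TRG, against 6.8 over the list. In these windows the order of the loci by mean was thus TRG, TRB, IGH, TRA/TRD and IGK. Narrowed by 50 kb on each side, the means were 0.691 in IGH, 0.375 in TRA/TRD, 0.167 in TRB and 0 in TRG and IGK, so the order turned. TRB and IGH differed little, and the first place of TRG rested on 5 intervals, since its other 12 scored 0.

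The 1 Mb on either side of each window differed from the loci to unequal extents. The flanks of IGH held 327 intervals with 75.8% above 0, and those of TRA/TRD held 767 with 59.1%. For IGH all flank intervals lay on the left, since none was listed to its right. The flanks of IGK (126 intervals, 37.3%), TRB (182 scored intervals, 32.4%) and TRG (200 intervals, 42.0%) scored less often than their chromosomes. The difference between locus and flank was therefore widest for IGH, at -61.7 percentage points, and was narrowest for TRB (-13.3) and TRG (-12.6). Clustered immune genes elsewhere did not share the low share. The major histocompatibility region (chromosome 6, 28 to 34 Mb), which holds the genes of antigen presentation, had 68.5% of 2200 intervals above 0 and a mean score of 15.3. The leukocyte receptor complex (chromosome 19, 54 to 56 Mb) had 55.8% of 980 and a mean of 10.3.

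**Figure D1:**
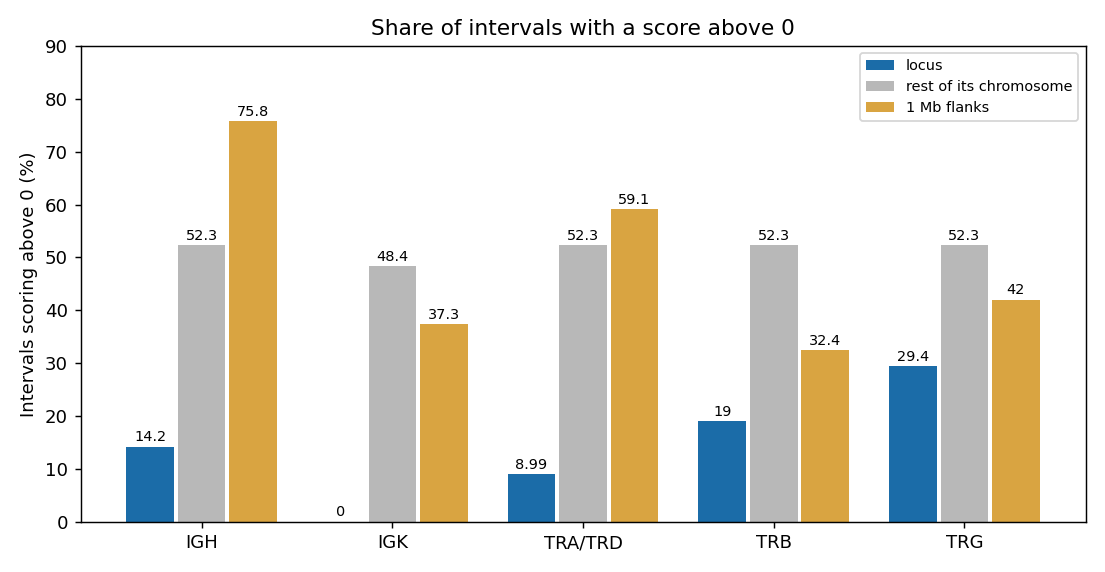
Share of intervals with a score above 0 (%, y axis from 0) in each locus, in the rest of its chromosome and in the 1 Mb flanks (left side only for IGH). Each bar is a census of listed intervals and has no error bar. In the windows as given all 5 loci lie below both of their comparison bars, and IGK is at 0.

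At the window edges the scores were as follows. The first interval inside IGH scored 1 and the nearest one outside on the left scored 0; no listed interval lay to its right on chromosome 14. For IGK and TRA/TRD both neighbours on both sides scored 0. For TRB the left pair scored 0, and on the right the last interval inside scored 2 and the next outside 3. For TRG the left pair scored 0 inside and 6 outside, and the right pair 5 inside and 0 outside.

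The widths set many of the members apart from the rest of the list. The design aimed at 100 nt from each end of an intron, so an intron shorter than both ends together leaves 1 interval rather than a pair. In these loci an intron of up to 100 nt appeared as 1 interval of its own length, and one above 100 and up to 200 nt as 1 interval that was 1 nt shorter. A longer intron appeared as a pair of 100 nt intervals with a gap of its length minus 201 nt, and an exon between targeted introns left a gap mostly 1 nt longer than itself. These relations were found by setting the intervals beside the intron lengths of GENCODE release 29 after the values had been seen. They give gene names by length and order, not by position, because that annotation lies on another build.

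Single intervals other than 100 nt were frequent among the members. Of the 360, 165 (45.8%) had a width other than 100 nt, against 12.3% of the whole list. Wide single intervals, here those at least 2 nt wider than 100 and at most 200 nt, were 114 members (31.7%; whole list 3.37%), and 70 to 95 nt by 40 (11.1%; whole list 3.08%). The loci divided these classes unequally. IGK had 30 of 57 intervals (52.6%) in the wide class and none at 70 to 95 nt. In IGH 28 of 134 (20.9%) were 70 to 95 nt wide and 21 (15.7%) were wide. TRB held both classes, with 10 narrow (15.9%) and 26 wide (41.3%). TRA/TRD had 2 narrow (2.25%) and 30 wide (33.7%), and TRG had 0 narrow and 7 wide (41.2%). Exactly 100 nt was the width of 195 members (54.2%), against 87.7% of the whole list.

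**Figure D2:**
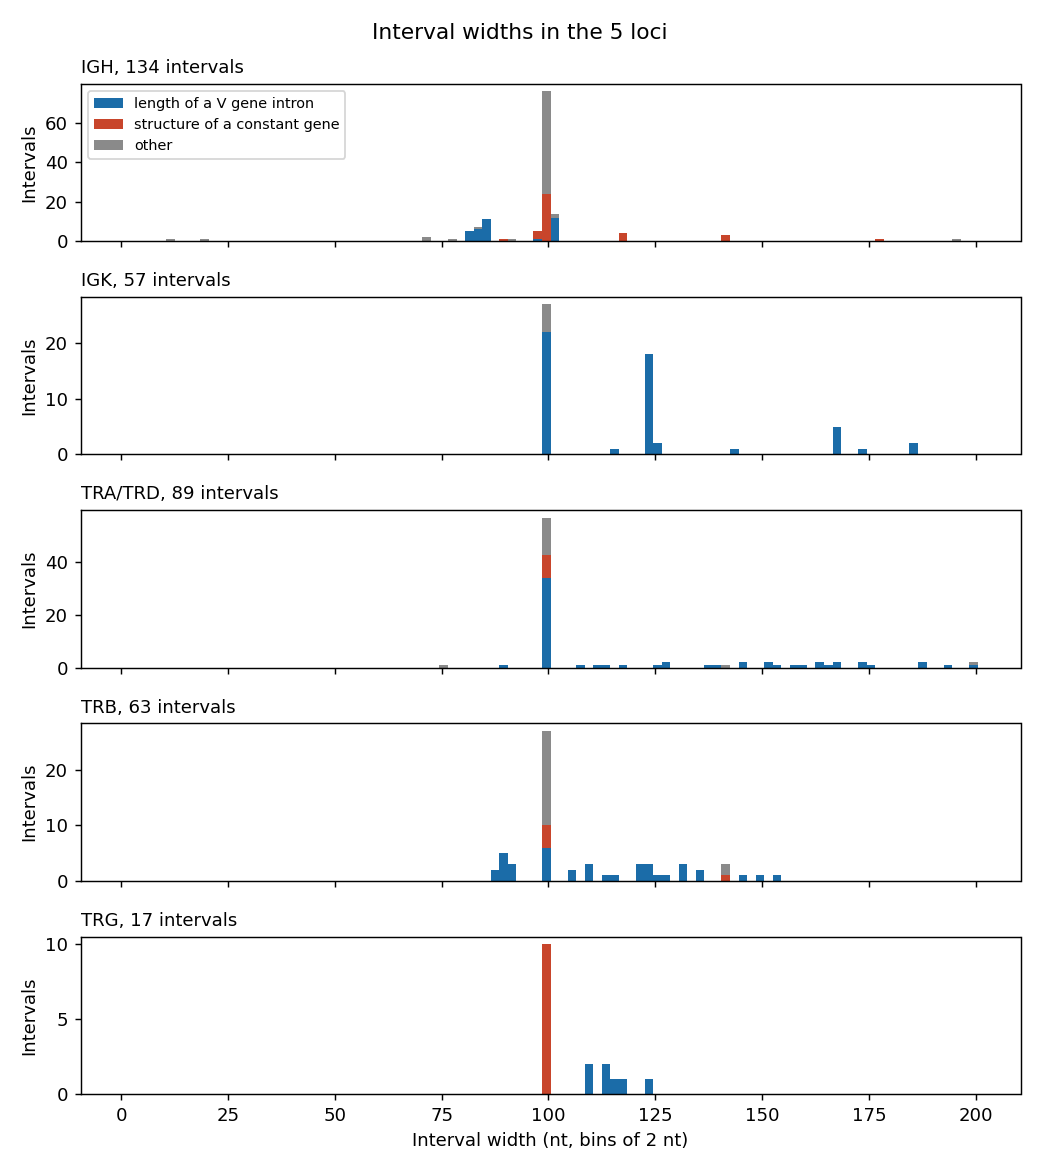
Number of intervals (y axis) by interval width (x axis, nt, bins of 2 nt) in the 5 loci, coloured by whether the width or pair has the length of a V gene intron, belongs to a constant gene stretch, or neither. The y axes start at 0 and differ in scale. The tallest bar of each locus is at 100 nt, IGH has its narrow intervals near 85 nt, IGK peaks at 123 and 124 nt, and the wide intervals of TRA/TRD are spread up to 200 nt.

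Most of the single widths were those of V gene introns. Among intervals other than 100 nt, the width matched that of a V gene or V pseudogene intron of the locus for 30 of 30 in IGK, where 4.14% of all such intervals of the list had one of the same widths. The match held for 7 of 7 in TRG (list 3.12%) and 29 of 32 in TRA/TRD (90.6%; list 8.44%). It held for 33 of 36 in TRB (91.7%; list 19.4%) and 42 of 60 in IGH (list 29.4%), some of the last lying among constant genes. In the annotation the median V intron was 86 nt in IGH, 169 nt in IGK, 169 nt in TRA/TRD, 116 nt in TRB and 115 nt in TRG. With pairs of matching gap added, and IGH counted only on the V side of its constant genes, 196 members (54.4%) had the length of a V intron: 35 in IGH, 52 in IGK, 63 in TRA/TRD, 39 in TRB and 7 in TRG. A V intron of 100 nt, or 1 nt longer, gives an interval of 100 nt, which width alone could not tell apart from others. Such introns, among them those of 7 IGHV3 genes, were left out here and in the order below. The V counts may therefore be too low.

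Counts of equal widths lay close to the numbers of V genes with the matching intron length, when V pseudogenes were left out. In IGH the width 2 nt above 100 was listed 12 times, against 13 genes of the IGHV3 family with an intron of 103 nt. There were also 9 V pseudogenes of that intron length, and by order some of the 12 could belong to these. The width 2 nt above 100 makes up 0.0659% of the whole list. The width of 82 nt was listed 5 times and is that of 5 IGHV4 genes. The width of 85 nt was listed 6 times, against 7 IGHV1 genes and 2 V pseudogenes. In IGK the width of 123 nt was listed 10 times and 124 nt 8 times, against 9 introns of IGKV1 genes for each. For 124 nt there was also 1 V pseudogene. The width of 168 nt was listed 5 times and 186 nt 2 times, which equals the number of IGKV3 introns of these lengths. TRA/TRD had no such pile-up. Its V genes mostly belong to families with 1 member, and no single width other than 100 nt was listed more than 2 times.

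**Figure D3:**
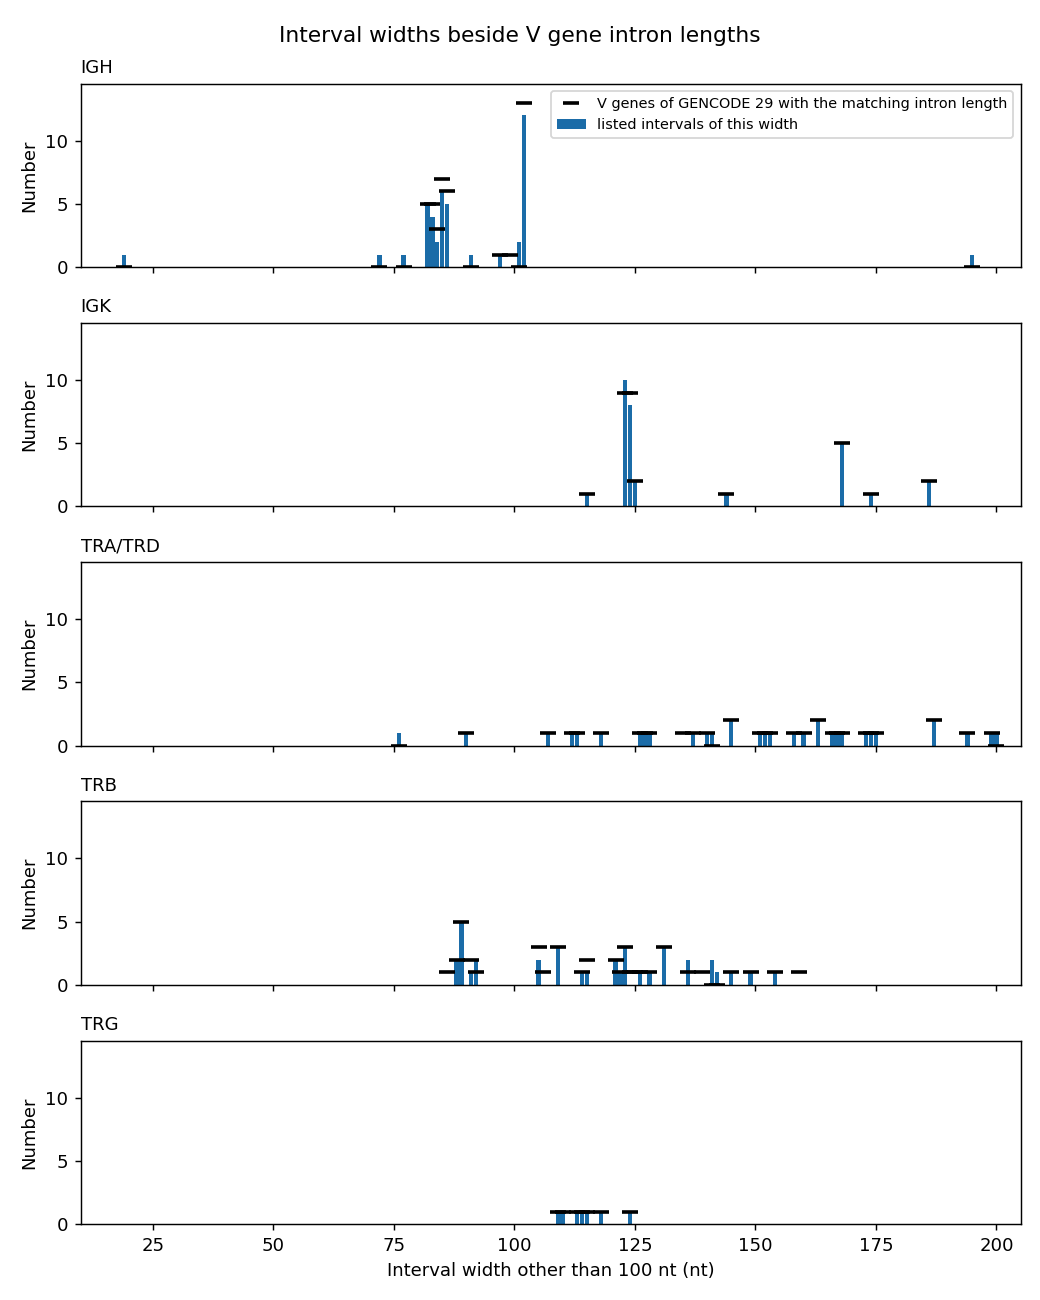
Number of listed intervals of each width other than 100 nt (bars; x axis in nt, y axis number) and number of V genes in GENCODE release 29 whose intron would give that width (black marks). V pseudogenes are not counted in the marks. Bars and marks lie close together at the repeated widths of IGH and IGK, and TRA/TRD has low bars of 1 or 2 throughout.

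The order of the widths along the chromosome matched the order of the V genes. Elements of V length, single or paired, were read from left to right and set beside the V genes and V pseudogenes in the order of the annotation. In TRA/TRD all 46 elements could be paired with genes in the same order, against 6 when the gene order was turned around. In TRG all 7 could be paired, against 1. IGH had 34 of 35 (24 in the opposite order) and IGK 40 of 41 (28 in the opposite order). TRB had 23 of 36 (63.9%; 16 in the opposite order), so names there are less sure. For 46 elements of TRA/TRD, 40 of IGK, 24 of IGH, 21 of TRB and 6 of TRG the pairing left only 1 gene.

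TRG, the smallest window, held the highest score of all members, and it lay in its V genes. Left to right the 7 V intervals had the widths of TRGV9 (109 nt), TRGV8 (124 nt), TRGV5 or the pseudogene TRGV5P (115 nt), TRGV4 (114 nt), TRGV3 (113 nt), TRGV2 (110 nt) and TRGV1 (118 nt). Their scores were 0, 0, 5, 37, 13, 10 and 5 in the same order. The interval with the length of TRGV4 was chr7:38393627-38393740. That of TRGV3 was chr7:38398424-38398536 and that of TRGV2 was chr7:38402776-38402885. The 5 scored intervals followed each other without a break at the right end of the window, and the V intervals of TRGV9 and TRGV8 length to their left scored 0.

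The constant genes of TRG carried no score. TRGC2 appeared as 6 intervals from chr7:38279768 to 38288842 and TRGC1 as 4 intervals from chr7:38299832 to 38304948. Both encode the constant part of the gamma chain. Their intervals were separated by gaps of 49 nt, 2 times in TRGC2 and once in TRGC1, 1 nt more than the 48 nt exon shown above. All 10 intervals scored 0. In TRG the score was thus found at V lengths and not at constant gene lengths, whereas in TRB and TRA/TRD most of the summed score lay in constant gene stretches.

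TRB had its scores at the constant gene. TRBC2, from chr7:142499113 to 142500186, was represented by 5 intervals with scores of 10, 8, 8, 2 and 4, so all 5 were above 0. The gap of 19 nt between its interval of 142 nt and the one before it encloses the 18 nt exon shown above. The pair that follows had a gap of 166 nt, the length of TRBV30, the V gene known to lie downstream of the constant genes, and scored 1 and 2. These 7 intervals filled the last 30 kb of the window, and their summed score of 35 was most of the 43 of the locus. No stretch with the lengths of TRBC1 was found.

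Elsewhere TRB was mostly at 0. Of the 39 intervals of V length, 4 scored above 0 and none above 2. They had the lengths of TRBV19 (score 1), TRBV20-1 (1 of its 2 intervals, score 1) and TRBV30. The first 30 intervals of the window, over 260 kb, all scored 0. The window also holds trypsinogen genes, which encode a pancreatic protease and are known to lie inside the TRB locus. A stretch of 4 intervals from chr7:142459880 to 142460718 had the lengths of PRSS1 and scored 0, 1, 0 and 0; 3 of the 4 would also have the lengths of PRSS2.

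In TRA/TRD the intervals of V length were at 0 and the constant gene of the delta chain was not. All 63 intervals of V length scored 0. An interval of 141 nt at chr14:22409416-22409556 lay among them, matched no V length of the annotation and scored 1. TRDC, from chr14:22932666 to 22934524, was represented by 5 intervals with scores of 6, 0, 6, 0 and 11. An interval of 76 nt just before them, at chr14:22932228-22932303, scored 0. Read on the strand of the gene, the intervals at the 3′ end of an intron scored 6, 6 and 11 and those at the 5′ end scored 0, 0 and 0. This alternation was noticed after the values were seen and covers 3 introns of 1 gene. TRBC2 did not show it: its first intron scored 10 at the 5′ end and 8 at the 3′ end, and its last 2 and 4.

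TRAC, the constant gene of the alpha chain, showed a different level from TRDC. Its 4 intervals from chr14:23018482 to 23019709 all scored 0, and the right edge of the window cuts off the rest of the gene. A noncoding transcript, AC244502.1, had 5 intervals with scores of 0, 0, 0, 0 and 2. Outside the constant genes the highest score of TRA/TRD was 2. A run of 45 intervals over 438 kb and one of 25 intervals over 302 kb held only zeros, and most of both had V lengths.

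In IGH the scores were concentrated in a stretch of the V part. Between 800 and 1000 kb from the start of the window lay 18 intervals, 12 of them scored, with a summed score of 75 out of 86. The other 116 intervals of the locus had 7 scored ones with a sum of 11. The highest score was 20 at chr14:106877927-106878009, 83 nt wide, which by length and order is the intron of IGHV4-39. The intervals paired with IGHV3-38 (an intron of 103 nt, score 3), IGHV1-45 (85 nt, score 5) and IGHV1-46 (85 nt, score 2) lay in the same stretch. One scored V interval lay apart, that of IGHV4-4 (82 nt, score 2). The other 30 of the 35 intervals counted as V scored 0. A 100 nt interval at chr14:106845628-106845727, between those paired with IGHV4-34 and IGHV3-38, scored 1. By its width it was not counted as V.

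Part of this stretch was not V gene. The long noncoding RNA LINC00221, matched on 2 of 3 lengths, was represented by 3 intervals from chr14:106938646 to 106945069. They scored 16, 5 and 4, all above 0. The next highest score of IGH, 9, lay at chr14:106950071-106950170, an interval of 100 nt in no matched stretch. Only exact lengths were matched, so whether it belongs to LINC00221 was not settled. Other noncoding transcripts of IGH were at or near 0. AC246787.2 had 6 intervals, all with score 0. FAM30A had 3 intervals of 100 nt with score 0, and the 72 nt interval that bounds its first matched gap, at chr14:106388532-106388603, scored 2.

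The IGH constant genes followed each other in the textbook order and scored 0 or close to it. From left to right stretches with the lengths of IGHA2, IGHG4, IGHG2, IGHA1, IGHG1, IGHG3, IGHD and IGHM were found, 37 intervals in all, and each stretch occurred once in the whole list. IGHA2 (chr14:106053669 to 106054424) and IGHA1 (chr14:106173900 to 106174694), which encode the IgA heavy chains of mucosal secretions, scored 1, 0, 0, 0 each. IGHD, the heavy chain of IgD on naive B cells, scored 2, 0, 0, 0, 2 and 0. IGHM, the first class made by a B cell, and the 4 IgG genes scored 0 throughout their stretches. The next interval to the right of the IGHG2 stretch, 99 nt wide and 296 nt away at chr14:106111128-106111226, scored 1. No stretch with the lengths of IGHE, the IgE heavy chain, was found.

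The hinge gaps separated the IgG genes in the list into 3 kinds. IGHG1 (chr14:106208133 to 106209112) had the hinge gap of 46 nt, 1 nt more than its exon. IGHG2 (chr14:106109863 to 106110831) and IGHG4 (chr14:106091136 to 106092107) both had 37 nt, and differed in the gap across another exon, 327 nt against 330 nt. IGHG3 (chr14:106235897 to 106237447) had 3 gaps of 46 nt and 1 of 52 nt, with 3 intervals of 142 nt between them. The IGHG3 stretch had 7 intervals, against 4 in the stretch of each of the other IgG genes, and 11 of its lengths were matched. These are matched runs and not whole genes. A pair with a gap of 2016 nt, that of an IGHG1 intron, lay outside the IGHG1 stretch.

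Across the 5 loci, 13 constant genes had a stretch and 5 of these held a scored interval: IGHA1, IGHA2, IGHD, TRDC and TRBC2. Intervals of constant gene stretches scored above 0 in 12 of 61 cases (19.7%) and V length intervals in 14 of 196 (7.14%), with 18 of 103 (17.5%) for the remainder. A stretch is only the longest matched run of its gene. Pairs of IGHA1, IGHG1 and IGHD length outside these runs, all with score 0, were counted in the remainder. The order of constant gene stretches and remainder depends on this split and is not firm. The whole-list share of 52.8% was above all of these. Of the 14 scored V intervals, 5 were in IGH, 4 in TRB and 5 in TRG.

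**Figure D4:**
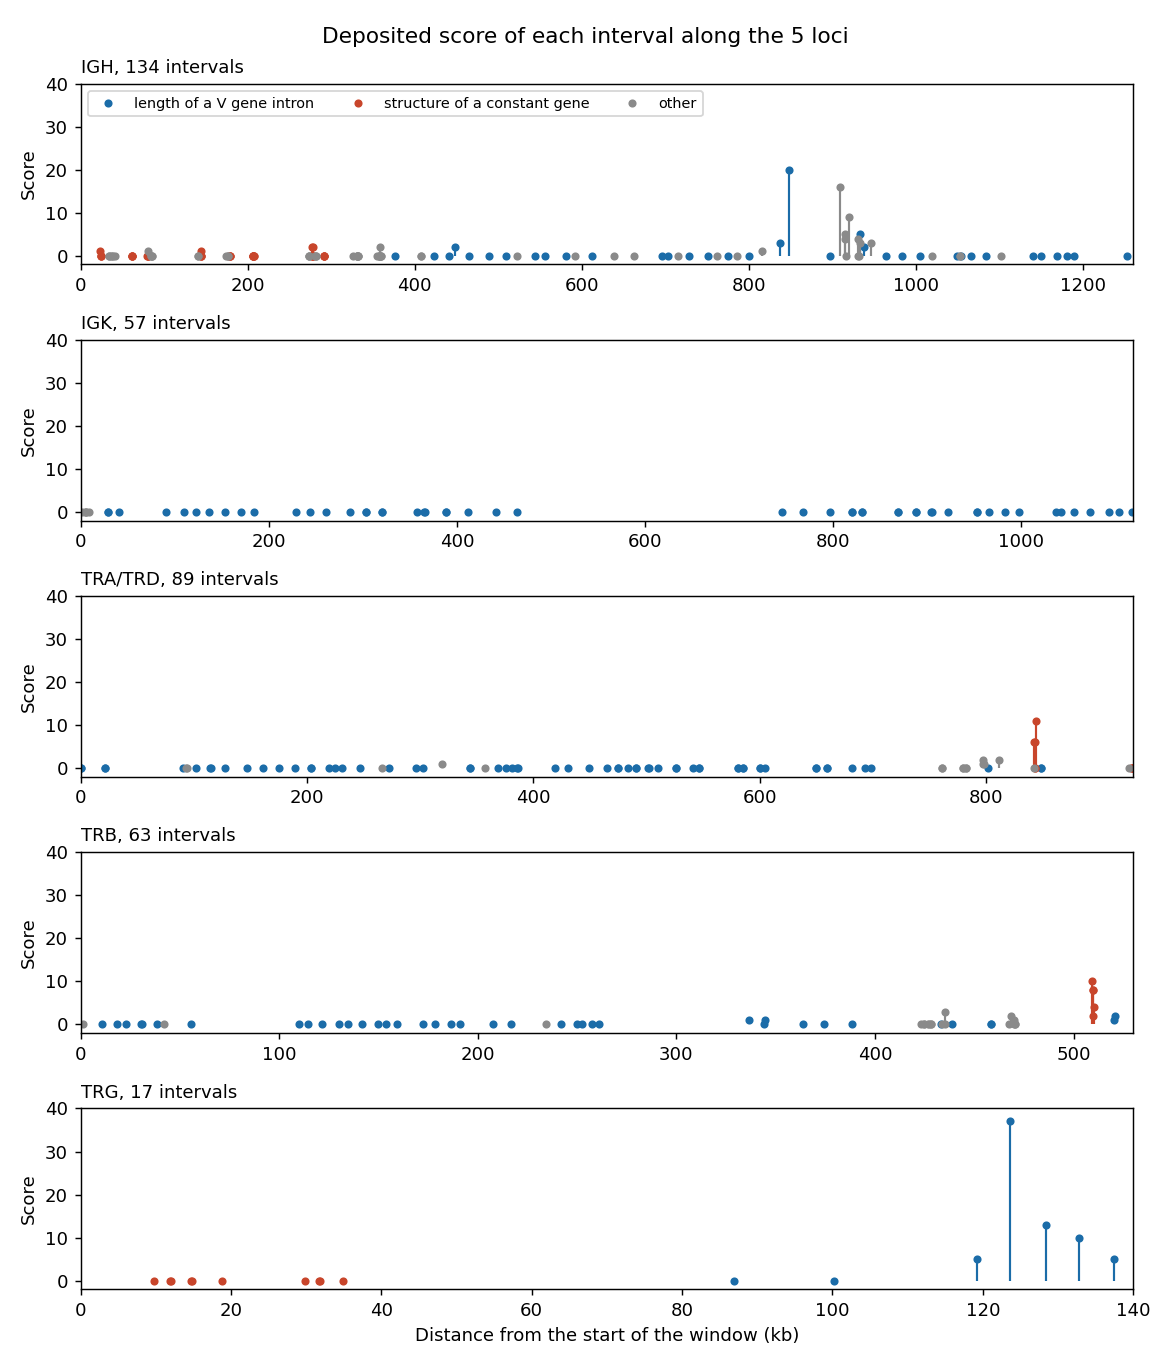
Deposited score (y axis) of each interval against its distance from the start of the window (x axis, kb) in the 5 loci, coloured as V gene length, constant gene stretch or other. Scores above 10 occur in the V part of TRG, in 1 stretch of IGH and at 1 interval of TRDC, and IGK lies at 0 over its whole length.

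IGK had the sparsest targets and no score. It held 5.09 intervals per 100 kb, against 10.6 in IGH, 9.57 in TRA/TRD, 11.9 in TRB and 12.1 in TRG. Of its 57 intervals 52 (91.2%) had V lengths. All 57 were at 0 over 1120 kb, whereas 47.2% of the whole list scored 0. IGK also had no interval of 96 to 99 nt, nor had TRA/TRD, TRB or TRG. On the rest of chromosome 2 such intervals made up 9.28%, but 1.78% among those with a score of 0.

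The kappa V genes are known to lie in a proximal and an inverted distal copy, and the list showed this arrangement. The longest gap of all members, 281569 nt from chr2:89619802 to 89901370, divided IGK into 25 elements on the left and 20 on the right. Counted outward from the gap, the first 4 elements were identical on both sides: 3 single intervals of 123 nt and a pair with a gap of 225 nt. In mirrored order 13 elements were shared (52.0% of the left and 65.0% of the right), and 7 when both sides were read in the same direction. By the order of the V genes, 11 of the 13 were a proximal gene and its distal counterpart, starting with IGKV1-39 and IGKV1D-39.

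Distances between the mirrored elements were also alike. The steps between the first 4 elements were 22239, 29140 and 23054 nt on the left and 22112, 29208 and 22694 nt on the right. Further out, the step from IGKV1-16 to IGKV3-15 was 14511 nt and that from IGKV1D-16 to IGKV3D-15 was 14510 nt. Between IGKV2-30 and IGKV2-24, elements without a mirrored partner stood on both sides. The last step before the IGKV2-24 pair, 36639 nt on the left and 18485 nt on the right, started from these. It therefore does not compare mirrored elements. From pair to pair the spans were close to equal, 89476564 to 89544575 on the left and 89976178 to 90043687 on the right. Not all steps matched. On the left 25103 nt separated the mirrored element of 186 nt from the next one, of 124 nt. On the right an element without a mirrored partner followed the one of 186 nt after 30567 nt. The mirrored element of 124 nt lay further out still.

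**Figure D5:**
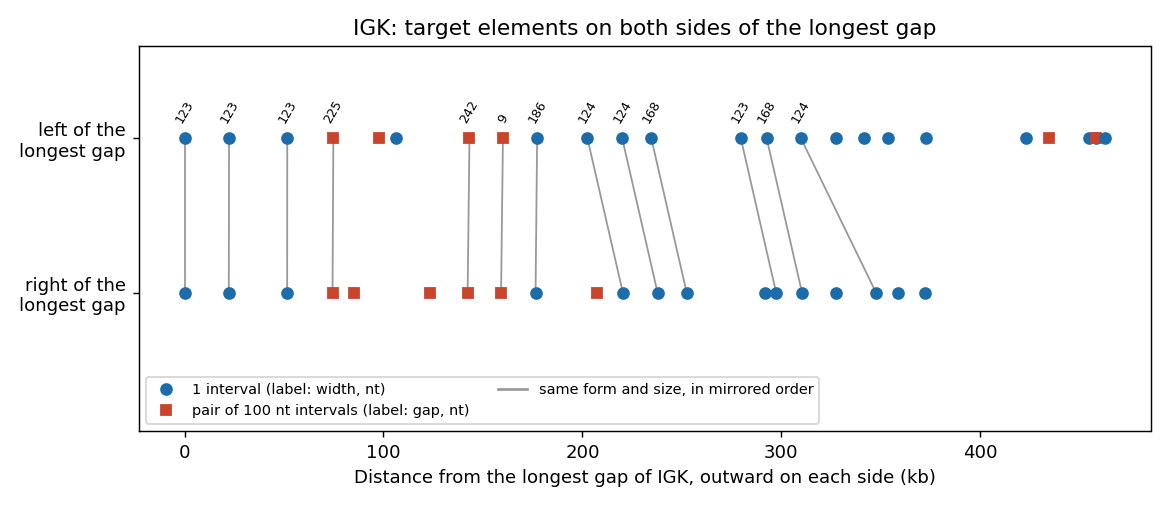
Elements of IGK on the left (upper row) and right (lower row) of its longest gap, by distance outward from the gap (x axis, kb). Circles are single intervals and squares pairs of 100 nt intervals, lines join the 13 elements of the same form and size in mirrored order, and numbers give width or gap in nt. The first 7 lines stand nearly upright, so the distances on both sides are close to equal out to IGKV3-20 and IGKV3D-20.

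Long gaps between neighbours were more frequent among the members than in the list. Over the 5 loci 138 of 355 gaps (38.9%) exceeded 10 kb, against 11.5% of the whole list. The share was 69.6% in IGK, 38.6% in TRA/TRD, 36.1% in IGH and 21.0% in TRB, and in TRG 4 gaps of 16 were that long. The median gap was 15436.5 nt in IGK, 5698 nt in TRA/TRD, 4618 nt in TRB, 4025 nt in TRG and 2044 nt in IGH, against 505 nt over the list. Among gaps of at most 1000 nt the medians were 190 nt in IGH and IGK, 160 nt in TRB, 84 nt in TRA/TRD and 49 nt in TRG, around the 148 nt of the list. TRG had only 3 such gaps, all across the 48 nt exon.

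The longest gaps marked parts with no listed intron end. In IGH the longest ran for 66046 nt from chr14:106237448 to 106303493, between the stretches of IGHG3 and IGHD. TRA/TRD had 78152 nt from chr14:22938569 to 23016720, where the alpha J segments are known to lie. This gap ran from the pair of TRDV3 length, to the right of TRDC, to the last interval before the TRAC stretch. In TRB 75532 nt separated the last interval of the V run at 0 from the one of TRBV19 length, and TRG had 51989 nt between TRGC1 and TRGV9. No interval number was missing in any of the 5 windows, while 91 were missing in the major histocompatibility region and 26 in the leukocyte receptor complex. Gaps of 30 to 400 nt were also divided by 3. Across an exon such a gap mostly carries the exon length plus 1, but inside a pair it lies within an intron. Both kinds were counted, so the shares do not describe exon lengths alone. Over the 5 loci 46.7% (43 of 92) left 1, against 38.0% over the list. The loci were uneven: 54.3% in IGH (25 of 46), 22.2% in IGK (2 of 9), 35.7% in TRB (5 of 14), 8 of 20 gaps in TRA/TRD and 3 of 3 in TRG.

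The extremes of width were few. The narrowest members were 12 nt (chr14:106114893-106114904) and 19 nt (chr14:106387958-106387976), both in IGH and both with score 0, and the widest was 200 nt in TRA/TRD (chr14:22356192-22356391, score 0). Width and score were not linked in the same way in each locus. In TRG the 5 scored intervals were all in the wide class and the 10 of 100 nt scored 0. In TRB 10 of the 12 scored intervals were 100 nt wide, as were 12 of 19 in IGH and 7 of 8 in TRA/TRD. The design left out regions of high transcription in public K562 data and repeats, and how these removals bear on the members was not tested.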

How the data were processed

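RNA from 3 K562 libraries of 1 group was captured with a shared probe design. The deposited list of target intervals (hg19, 1-based here) gives each one a score, which the authors deposited without a stated meaning or normalisation, so it was not treated as a read count. The authors aimed, per the labels' protocols, at 100 nt from either intron end in GENCODE release 12, left out exons, highly transcribed regions and repeats, and state a design of 36.8 Mb. The submitters' processing notes name Bowtie2, TopHat2, bedtools and hg19, without their roles. Members were counted per window; the list is a census, so no test was run. Intron lengths and gene order came from GENCODE release 29 (GRCh38); coordinates of the builds were not joined. A constant gene stretch needed at least 2 matching lengths. The search was tested on a list simulated from the same annotated constant genes. That list held no introns of other genes, so the test does not measure false matches in the real list. For the mirrored order of IGK, pairs had gaps of at most 300 nt. For the length matches, any neighbouring intervals of 100 nt could form a pair. Named regions were, per locus, the 5 highest scores, the 3 widest, the 3 narrowest, the 3 longest gaps and zero runs of at least 20. The split into V, constant and other intervals, the gene order and the mirrored order were examined after the values were seen. Members and lists were chosen with earlier results of these data known. Python 3.11.15, numpy 2.4.6, pandas 2.3.3, scipy 1.17.1 and matplotlib 3.10.9 were used.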

Additional observations from a re-analysis of the deposited data

How the results depend on the processing

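Of 100 values recomputed with another threshold, window, width class, gap limit or background, 66 stayed within range, 33 moved and 1 turned its direction. The range was a factor of 1.5 for counts, means and medians. For shares it was the exact 95% binomial interval of the share in use. For differences in share it was the interval of the locus share, less the share of the rest of its chromosome. A difference could therefore move by less than a factor of 1.5, as -53.3 against -48.4 in IGK. It could also stay within range beyond that factor, as -12.6 against -22.9 in TRG. With a score of 6 or more in place of above 0, the share became 2.24% in IGH, 3.37% in TRA/TRD and 4.76% in TRB. With 100 nt intervals only, it was 37.0% in TRB and 0% in TRG. Without the 5 highest-scoring intervals the mean score fell to 0.24 in IGH, 0.0357 in TRA/TRD, 0.172 in TRB and 0 in TRG. Windows widened by 50 kb on each side gave 115 intervals, 32.2% above 0 and a mean of 1.83 in TRB, 37 intervals, 54.1% above 0 (against 29.4%) and a mean of 6.22 in TRG, and a mean of 1.62 in TRA/TRD. Windows narrowed by 50 kb gave a mean of 0.167 in TRB and left 1 interval in TRG, with 0% above 0 and a mean of 0. Widths within 4 nt of 100 made up 70.9% of IGH, and widths from 5 nt above 100 up to 200 nt 6.72%. Over all gaps instead of those of at most 1000 nt, the median gap was 2044 nt in IGH, 15436.5 nt in IGK, 5698 nt in TRA/TRD, 4618 nt in TRB and 4025 nt in TRG. The share above 0 differed from that of the 1 Mb flanks by -61.7 percentage points in IGH, -37.3 in IGK, -50.1 in TRA/TRD, -13.3 in TRB and -12.6 in TRG, and in IGK by -53.3 from the list without chromosomes 1, 2 and Y. Against the rest of the chromosome the differences were -38.1 in IGH, -48.4 in IGK, -43.3 in TRA/TRD, -33.3 in TRB and -22.9 in TRG. Chosen after seeing the data, the same difference was recomputed with shifted windows: widened, it was -20.2 in TRB and turned to 1.75 in TRG, and narrowed it was -52.3 for the 1 interval left in TRG. The order of the loci by mean score also turned with the window: widened, TRA/TRD (1.62) passed IGH (0.623), and narrowed, IGH (0.691) was highest. The causes were not tested. No paired analysis was possible because the list holds no value per library and the labels give 1 group, and no library could be left out for the same reason. The depth behind the score is unknown. Names rest on lengths and order from a later annotation, and those with several possible genes are less sure.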
